A study of Saccharomyces cerevisiae with 24 samples.

Results

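Meiosis and spore formation are programmes that budding yeast starts only as a starved diploid of mixed mating type, and the genes described here are those whose products carry them out. The set was a list of 44 genes, matched by systematic name to the gene tables. Of these, 39 had a row, among 5193 genes in all, and AMA1, SAE3, HOP2, SPO22 and ADY4 were not analysed here. The 39 members were sorted by role into 7 regulators and kinases, 5 genes of DNA double-strand break formation, 3 of strand exchange, 7 of chromosome axis, synapsis and cohesion, 7 of the prospore membrane and 10 of the spore wall and late sporulation.

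The cells were haploid *Saccharomyces cerevisiae* of the W303 background, given in the methods as W303-1B, MATa, with ade2, trp1, can1, leu2, his3 and ura3 mutations in every sample, and grown in rich glucose medium (YPD). An Opentrons OT-2 liquid handling robot aspirated, mixed and dispensed the cultures at 50, 130, 210 or 290 µL/s, and poly(A) RNA was then sequenced. Each speed had 2 biological replicates (separate cultures, written B1 and B2) of 3 technical replicates (aliquots, T1 to T3), which made 6 libraries per speed and 24 in all. The sample labels give the technical replicate number only and do not say whether it marks an order in time or a position. There was no sample without pipetting, so 50 µL/s served as the reference, and each biological replicate was 1 culture. Libraries held 11555784 to 15464458 counted fragments.

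In a growing cell this programme is held off at several levels. IME1 encodes the transcription factor that starts it, and its promoter integrates mating type and nutrient signals, with Rme1 repressing it in haploid cells and glucose repressing it through protein kinase A. The Ime1 protein turns Ume6 from a repressor into an activator of early genes such as those of recombination and synapsis, and NDT80, held off by Sum1, then switches on the middle genes of the meiotic divisions and the spore.

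The 39 genes were nearly all at the bottom of the expression range. TPM, a length-scaled transcript abundance with the same total in every library, was the unit, so levels of different genes can be set side by side. By mean TPM over 24 libraries, 10 members (25.6%) lay under 1 TPM, called silent here, 24 (61.5%) lay from 1 to under 10 TPM, called barely expressed, and 5 (12.8%) reached 10 TPM, called clearly expressed. Over all genes the same limits gave 2.72%, 6.26% and 91.0%. The member median was 2.81 TPM against 52.6 TPM for all genes, 36 of 39 members lay among the lowest 10% of genes, and 0 lay above the median of all genes.

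**Figure D1:**
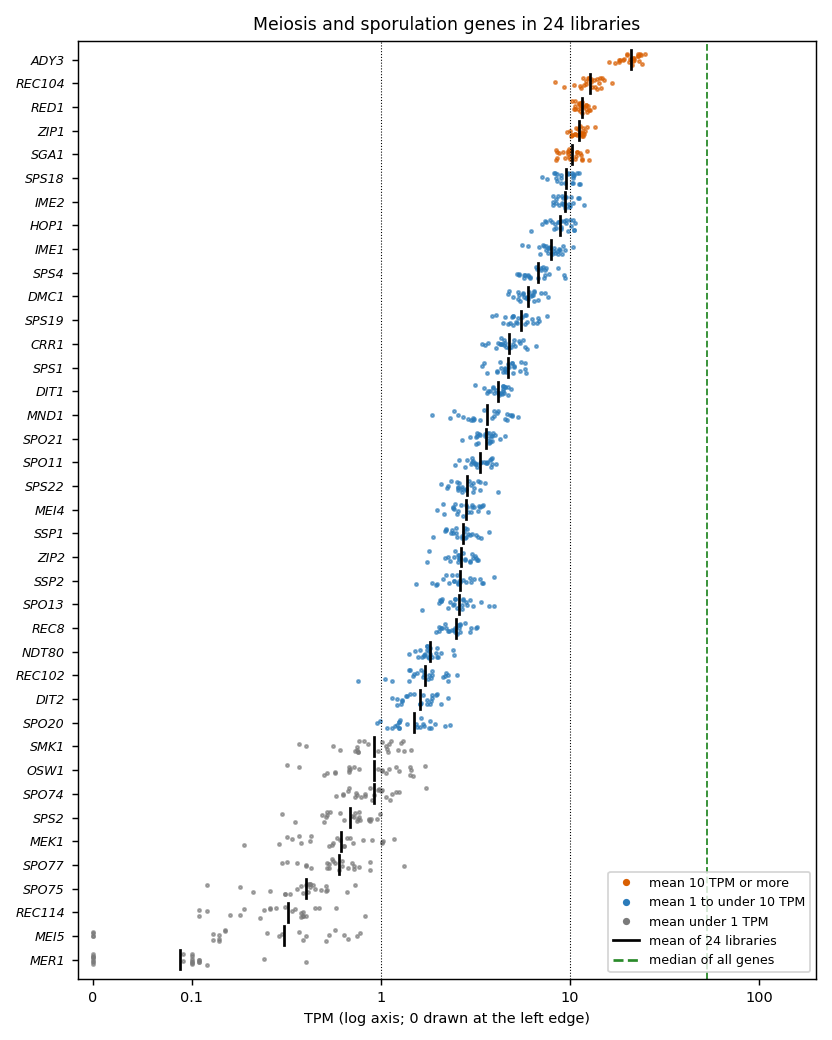
TPM of each of the 39 members (rows, by mean) in each of 24 libraries (points) on a log axis, coloured by class of mean level, with the mean as a black bar; dotted lines mark 1 and 10 TPM and the dashed line marks the median of all genes at 52.6 TPM. Every point lies left of that dashed line, and the highest member, ADY3, spans 15.95 to 24.80 TPM.

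Silent did not mean absent from the counts. In total 37 members had at least 1 count in every library, and 35 had more than 3 counts in every library. Members called silent gathered 20 to 354 counts over all 24 libraries, and those called clearly expressed 1702 to 16657. Summed over the 39 genes, the level was 176 ± 7.95 TPM (SD, n = 24), or 0.0286% ± 0.00122 of all counts (SD, n = 24), and it ranged from 164 to 190 TPM between libraries. For 30 members the variance between libraries was under 2 times that expected from counting alone, and it was highest, at 8.23 times, for ADY3.

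The class limits cut through a continuous range. SGA1, just above 10 TPM with a mean of 10.2, reached 10 TPM in 12 of 24 libraries, and SPS18, just below with 9.54, reached it in 11. SMK1, just under 1 TPM with 0.924, was under it in 13 of 24 libraries, and SPO20, next above with 1.49, in 2. Of the silent members 5 of 10 were under 1 TPM in all 24 libraries, 18 of 24 barely expressed members kept to their range in all 24, and 2 of 5 clearly expressed members, ADY3 and RED1, reached 10 TPM in all 24.

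Among the regulators, IME1 was transcribed at a low level at every speed. At 50 µL/s it had a lowest, median and highest value of 5.98, 8.32 and 10.37 TPM, at 130 µL/s 5.57, 7.45 and 8.61, at 210 µL/s 6.92, 8.13 and 9.20, and at 290 µL/s 7.42, 7.98 and 9.09. The 4 speeds overlapped, and the mean over 24 libraries was 7.97 ± 1.08 TPM (SD).

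IME2, the kinase that Ime1 induces and that drives entry into the programme, had 8.14, 9.64 and 10.10 TPM (lowest, median, highest) at 50 µL/s and 8.13, 8.92 and 10.31 at 290 µL/s. It was above IME1 in 21 of 24 libraries, with a median ratio of 1.16. NDT80, the activator of the middle genes, had 1.61, 1.78 and 2.42 TPM at 50 µL/s and 1.40, 1.76 and 1.97 at 290 µL/s. IME1 exceeded it in 24 of 24 libraries, by a median of 4.30-fold.

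The remaining regulators act later or on RNA. SPS1, a kinase of spore formation, had a mean of 4.69 TPM, and SSP2, an activator of the spore wall kinase Smk1, had 2.62 TPM, while SMK1 itself had 0.924 TPM. MER1, which promotes splicing of meiotic messages, was the lowest member: it had 20 counts in all libraries together, 0 counts in 8 libraries and 3 counts or fewer in 23, where 3 counts correspond to 0.316 TPM.

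The genes of double-strand break formation spread over the 3 classes. SPO11, the enzyme that cuts the DNA, had 3.33 ± 0.438 TPM (SD, n = 24). Of its partner proteins, REC104 was the second highest member at 12.8 ± 1.86 TPM, MEI4 had 2.81 and REC102 had 1.71 TPM, and REC114 had only 0.325 ± 0.161 TPM with 2 to 13 counts per library. All of these proteins are needed for breaks in meiosis. The ranges of REC114 and REC104 over the libraries, 0.11 to 0.82 TPM and 8.29 to 16.66 TPM, did not overlap.

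In strand exchange, DMC1, the recombinase specific to meiosis, had a mean of 5.99 TPM. Its accessory factor MEI5 had 0.310 TPM, with 0 counts in 4 libraries, and MND1, which stimulates Dmc1, had 3.65 TPM.

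The chromosome axis and synaptonemal complex held 2 of the 5 clearly expressed members. RED1, an axis protein, had 11.6 ± 0.785 TPM, and ZIP1, the transverse filament between paired chromosomes, had 11.2 ± 0.847 TPM. These neighbours in the ranking were not separated, since RED1 was the higher in 14 of 24 libraries. HOP1, the axis partner of Red1, had 8.88 TPM and was below RED1 in every library, whereas MEK1, the axis kinase that acts with both, was silent at 0.619 TPM.

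ZIP2, which helps start synapsis, had 2.66 TPM, below ZIP1 in 24 of 24 libraries. REC8, the cohesin subunit of meiosis, had 2.48 TPM, and its mitotic counterpart MCD1 was a median of 26.0-fold higher and above it in every library. SPO13, which keeps sister chromatids together through the first division, had 2.60 TPM.

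The prospore membrane genes had the lowest median of the 6 role groups, 1.49 TPM, and also the highest member. ADY3, a component of the coat at the leading edge of the growing membrane, had 20.9 ± 2.34 TPM (SD, n = 24), above REC104 in every library and at the 19.3 percentile of all genes. SSP1, another leading edge protein, had 2.7 TPM. SPO21 and SPO74, of the outer plaque that the spindle pole body builds for membrane growth, had 3.58 and 0.917 TPM.

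SPO20, the membrane fusion SNARE protein of the spore, had 1.49 TPM. SPO75 and SPO77, both needed for proper spore formation, were silent at 0.401 and 0.604 TPM, with 4 to 25 and 6 to 30 counts per library.

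Among the spore wall and late genes, SGA1, a glucoamylase made during sporulation, was the only clearly expressed member at 10.2 ± 1.23 TPM. SPS18 had 9.54, SPS4 6.80, and SPS19, a peroxisomal reductase, 5.48 TPM. CRR1, a glycosidase-like protein of the spore wall, had 4.73 TPM and the wall protein gene SPS22 had 2.84 TPM. OSW1 of the outer spore wall and SPS2, a relative of SPS22, were silent at 0.9225 and 0.684 TPM.

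Some members are neighbours on the chromosome, by the order of genes in the S288C annotation. DIT1 and DIT2, the 2 enzymes that make the dityrosine of the outer wall, are transcribed apart from a shared intergenic region. DIT1 had 4.18 and DIT2 1.61 TPM, and DIT1 was the higher in 24 of 24 libraries with a median ratio of 2.68. SPS18 and SPS19 are also transcribed apart, and SPS18 was above SPS19 in 24 of 24 libraries with a median ratio of 1.82. SPS1 and SPS2 lie in tandem, and SPS1, the upstream gene, exceeded SPS2 by a median of 6.52-fold.

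The upstream neighbour was transcribed away from the member for 25 members, with a median of 3.65 TPM among them, and in the same direction for 14, with a median of 2.76 TPM. Members called silent numbered 8 of the 25 and 2 of the 14. IME1 had 7.97 TPM, and RPL43B, the ribosomal protein gene transcribed away from it, had 2598 TPM. SPO77 had 0.604 TPM with the ribosomal protein gene RPP0 directly upstream on the same strand at 3451 TPM.

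Other lists placed the members in context. A list of 35 other genes induced in meiosis, not members, had a median of 4.40 TPM, with 4 silent, 19 barely and 12 clearly expressed. Its highest was SPO12, a regulator of mitotic exit too, at 172 TPM, then SPR6 at 51.1, and its lowest were CDA2, a chitin deacetylase of the spore wall, at 0.232 TPM and PFS1, a prospore membrane gene, at 0.410. Of 20 recombination and cohesin genes that mitotic cells share, 19 were clearly expressed, with a median of 23.2 TPM, and the other, RAD55, had 8.90 TPM.

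The regulators that act on the programme from outside were present. Of 23 repressors and input regulators, 21 were clearly expressed, with a median of 64.7 TPM. RME1, the repressor of IME1, had 198 TPM and exceeded IME1 by a median of 24.8-fold in 24 of 24 libraries. UME6 had 24.2 TPM, SUM1 had 51.4 TPM, and BCY1, the inhibitory subunit of protein kinase A, was the highest at 272 TPM. IME4, an RNA methyltransferase that acts in meiosis, had 0.285 TPM.

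**Figure D2:**
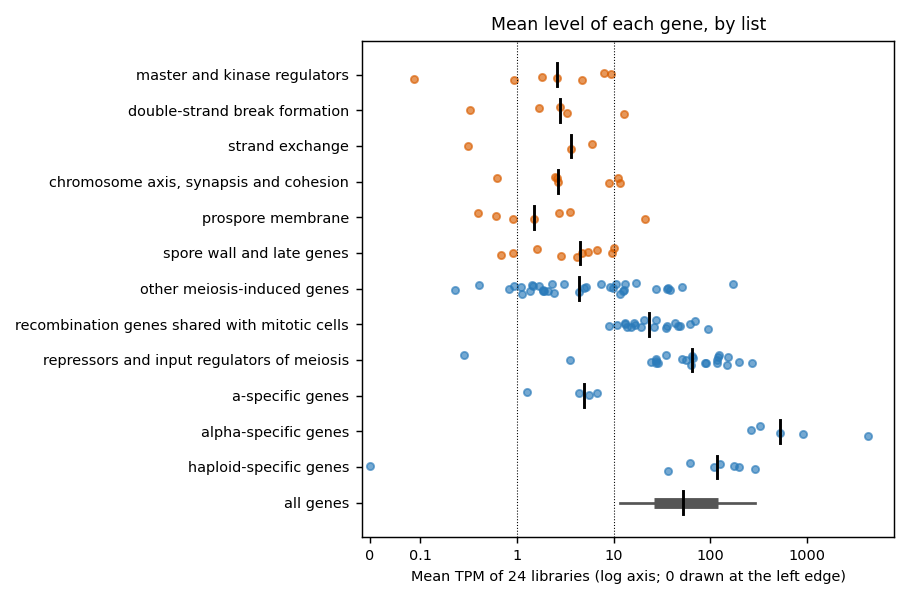
Mean TPM over 24 libraries (log axis) of each gene in the 6 role groups of members (orange) and in 6 other lists (blue), with the list's median as a black bar; for all genes the thick bar covers the 25 to 75 percentiles and the line the 10 to 90 percentiles. Every member group has its median between 1.49 and 4.46 TPM, against 64.7 TPM for repressors and input regulators and 23.2 TPM for recombination genes shared with mitotic cells.

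The markers of cell type were those of haploid cells. Of 8 haploid-specific genes 7 were clearly expressed, from STE5 at 36.9 to STE18 at 290.2 TPM, and HO, the mating type switching endonuclease, had 0 counts in every library. The 5 alpha-specific genes measured lay at 263 TPM for SAG1 to 4292 TPM for MF(ALPHA)1, the pheromone precursor. The 4 a-specific genes measured lay at 1.27 TPM for ASG7 to 6.75 TPM for STE6, and STE2, the receptor that a cells carry, had 5.55 TPM. These markers are those of alpha cells and go against the mating type MATa that the methods list.

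The study asked whether pipetting speed affects gene expression, and the members were read from that test. A gene was called where edgeR's quasi-likelihood test gave a Benjamini-Hochberg adjusted p (false discovery rate, FDR) below 0.01 over all 5142 genes with an average count above 1. All members but MER1, 38 in number, passed that filter on the average over all libraries. Called members numbered 0 of 38 at 130 against 50 µL/s (0% of all genes tested called), 0 at 210 (0% of all genes) and 0 at 290 µL/s (0.0389% of all genes), and 0 over the 4 speeds together (0% of all genes). At an unadjusted p under 0.05 the counts were 2, 1, 1 and 2 members (1.71%, 2.99%, 10.5% and 3.44% of all genes). DESeq2 and limma voom called 0 members in each.

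Summed over the 39 members, the level was 174 ± 8.17 TPM at 50 µL/s, 174 ± 7.77 at 130, 175 ± 7.70 at 210 and 181 ± 7.94 at 290 µL/s (SD, n = 6 libraries each). The median log2 fold change of the members was −0.01 at 130, −0.02 at 210 and 0.05 at 290 µL/s, against −0.01 for all genes in each. IME1 differed by −0.04 ± 0.12 (log2 fold change, SE), IME2 by −0.09 ± 0.08 and NDT80 by −0.16 ± 0.10 between 290 and 50 µL/s. The 95% intervals left out a 2-fold change in either direction for 34, 36 and 35 of 38 members in the 3 comparisons. The median standard error was 0.128 for members and 0.066 for all genes, so members were measured less precisely than the typical gene.

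Samples with the same biological and technical replicate number deviated together across speeds, so the comparison was also made with that number as a block. With the replicate block of biological and technical replicate, 1 member was called between 290 and 50 µL/s (6.55% of all genes), and with technical replicate alone as the block 0 were (4.22% of all genes). The member was ADY3, with 15.95, 19.5 and 23.1 TPM (lowest, median, highest) at 50 µL/s and 19.9, 22.5 and 24.8 TPM at 290 µL/s. The ranges overlapped, but ADY3 was higher at 290 µL/s in 6 of 6 pairs matched on culture and technical replicate. In the blocked fit it rose by 0.17 ± 0.040 on the log2 scale (SE, adjusted p = 0.00607), against 0.17 ± 0.10 (adjusted p = 0.572) without the block. SPS19 was also higher in 6 of 6 such pairs but was not called, with a log2 fold change of 0.32 ± 0.13 (adjusted p = 0.362) without the block. Against 50 µL/s, SSP2 and SPO20 at 130 µL/s and SSP2 and DMC1 at 210 µL/s were also higher in 6 of 6 pairs. MEI5 at 130 µL/s was lower in 6 of 6, but had only 0 to 6 counts per library over all speeds. At these 2 speeds 0 members were called. Pairs were counted for the members only, so no share of all genes stands beside these counts. With this many members and speeds compared against the same 50 µL/s libraries, some would agree in 6 of 6 by chance.

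At FDR below 0.01, 0 of 38 members were called for biological replicate 2 against 1 (0% of all genes), and 0 by DESeq2 or limma voom. At an unadjusted p under 0.05 there were 4 members (10.3% of all genes). The median log2 fold change was −0.07, with 28 of 38 members below 0, against a median of 0.00 for all genes. Above 0 lay 10 members and 48.8% of all genes.

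At the looser FDR of 0.05 the cultures differed in 1 member, SSP2 (0.156% of all genes). It had 2.43, 2.98 and 3.94 TPM (lowest, median, highest, n = 12) in culture 1 and 1.53, 2.25 and 2.7 TPM in culture 2, with overlapping ranges. Its log2 fold change was −0.44 ± 0.088 (SE, adjusted p = 0.0482). As each biological replicate was 1 culture, this is a difference between 2 cultures.

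Members were called between technical replicates. Technical replicate 3 against 1 gave 9 of 38 members called, where 49.3% of all genes were called. Of the 9, 7 were lower (23.1% of all genes were called lower) and 2 were higher (26.2% of all genes were called higher). Technical replicate 3 against 2 gave 4 members (38.5% of all genes), all 4 lower (18.4% of all genes lower, 20.1% higher). Technical replicate 2 against 1 gave 0 members (4.28% of all genes), and 0 by DESeq2 or limma voom. At an unadjusted p under 0.05 it gave 4 members (25.5% of all genes).

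Over the 3 technical replicates together 8 members were called (48% of all genes). Leaving out 1 library gave 4 to 7, with 4 reached without 50 µL/s B1T3 or without 130 µL/s B2T1. At FDR below 0.05, 15 members were called for replicate 3 against 1 (59.9% of all genes), 7 for 3 against 2 (49.9% of all genes) and 1 for 2 against 1, SPS19 (10.3% of all genes). The technical replicates are aliquots of the same 2 cultures, and 4 libraries, 1 per speed, shared each culture and technical replicate number. Such libraries deviated together, yet the model counted them as independent. The p-values and standard errors between technical replicates, here and below, may therefore be too small, and the calls too many. These p-values do not measure how far repeated aliquots of a culture would differ.

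ADY3 had the smallest adjusted p of the members. It had 21.51, 22.9 and 24.80 TPM (lowest, median, highest, n = 8) in technical replicate 1, 19.07, 21.4 and 23.85 in replicate 2, and 15.95, 18.2 and 20.50 in replicate 3. Replicate 3 lay wholly below replicate 1, which held for 1 of the 38 members tested against 25.8% of all genes with no overlap in either direction, and was lower in 8 of 8 pairs matched on speed and culture. The log2 fold change was −0.36 ± 0.045 (SE, adjusted p = 6.87e-07) for replicate 3 against 1 and −0.27 ± 0.046 (adjusted p = 4.41e-05) for 3 against 2. Of 39 members, 3 were lower and 1 was higher in all 8 matched pairs for replicate 3 against 1. Here and below, pairs were counted for the members only. No share of all genes stands beside these pair counts, so they do not set the members apart.

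Of the 7 genes of chromosome axis, synapsis and cohesion, 4 fell (23.1% of all genes were called lower) and 0 rose, and these were ZIP1, ZIP2, HOP1 and MEK1. In the other role groups 0 of 5 break formation genes and 0 of 10 spore wall and late genes were called lower. So were 1 of 6 regulators, 1 of 3 strand exchange genes and 1 of 7 prospore membrane genes. The groups were compared after the calls were known. ZIP1 had 10.64, 11.8 and 13.46 TPM in replicate 1 and 9.59, 10.4 and 11.13 in replicate 3, lower in 8 of 8 pairs, with a log2 fold change of −0.22 ± 0.040 (adjusted p = 6.78e-05). ZIP2 had 2.32, 2.95 and 3.25 TPM in replicate 1 and 1.76, 2.35 and 2.58 in replicate 3, with a log2 fold change of −0.37 ± 0.089 (adjusted p = 0.00101). The ranges of each overlapped between these replicates. Between replicates 3 and 2, ZIP2 was the 1 member of 38 whose ranges did not overlap, at 1.76 to 2.58 and 2.59 to 3.21 TPM (13.1% of all genes).

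HOP1 went from a median of 9.78 to 8.11 TPM, with a log2 fold change of −0.27 ± 0.075 (adjusted p = 0.00318), and was lower in 7 of 8 pairs. MEK1 lost its call in 10 of 24 fits that left out 1 library. It is a silent gene and went from a median of 0.745 to 0.455 TPM, lower in 6 of 8 pairs, with a log2 fold change of −0.80 ± 0.25 (adjusted p = 0.00840). RED1, REC8 and SPO13 did not pass the test, with log2 fold changes of −0.02, −0.24 and 0.18.

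IME1 and the strand exchange factor MND1 also fell. IME1 had 6.88, 8.785 and 9.36 TPM in replicate 1 and 5.57, 7.255 and 8.26 in replicate 3, lower in 8 of 8 pairs though the ranges overlapped, with a log2 fold change of −0.31 ± 0.076 (adjusted p = 0.00115). MND1 went from a median of 4.64 to 2.88 TPM with a log2 fold change of −0.59 ± 0.16 (adjusted p = 0.00278). IME2 and NDT80, downstream of IME1, were not called.

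The 2 members that rose were SPS4, a late sporulation gene, and SSP1. SPS4 had 5.38, 5.75 and 7.39 TPM in replicate 1 and 6.13, 7.605 and 9.44 in replicate 3, higher in 7 of 8 pairs, with a log2 fold change of 0.33 ± 0.088 (adjusted p = 0.00235). SSP1 went from a median of 2.385 to 2.91 TPM, higher in 8 of 8 pairs, with a log2 fold change of 0.30 ± 0.094 (adjusted p = 0.00802), a call lost in 11 of 24 fits that left out 1 library. SSP1 and ADY3, whose proteins sit on the same leading edge, thus moved in opposite directions.

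**Figure D3:**
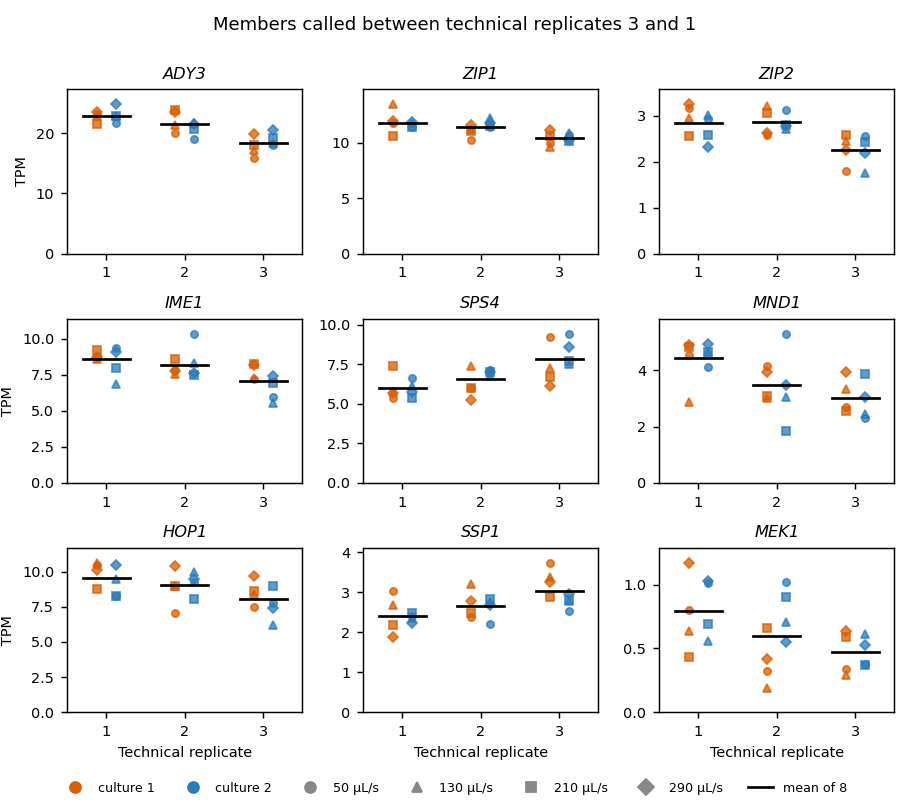
TPM (each vertical axis from 0) of the 9 members called between technical replicates 3 and 1, in the 8 libraries of each technical replicate; colour marks the culture, shape the pipetting speed, and bars the mean of 8 libraries. Replicates 1 and 3 do not overlap for ADY3, at 21.51 to 24.80 and 15.95 to 20.50 TPM, and overlap for the other 8; over all genes 25.8% do not overlap.

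Within each culture fewer members passed. Each such comparison set 4 libraries against 4, and the 4 on each side shared both culture and technical replicate number. For replicate 3 against 1 the median standard error of the members was 0.141 in culture 1 and 0.144 in culture 2, against 0.0995 over both. Fewer calls thus do not show smaller changes, and a member called in 1 culture only is not shown to differ between cultures. For replicate 3 against 1, culture 1 gave 4 members (40.3% of all genes), ADY3, ZIP1, ZIP2 and SPO20, and culture 2 gave 3 (40.3% of all genes), ADY3, IME1 and SPS4. For 3 against 2, culture 1 gave ADY3 and ZIP2, 2 members (35.5% of all genes), and culture 2 gave IME1, 1 member (26.3% of all genes). The difference between cultures was called for 0 of 38 members at FDR below 0.01 in each comparison by this test. Of all genes it was called for 3.38% (2 against 1), 1.26% (3 against 1) and 5.78% (3 against 2). For 3 against 2 the median standard error was 0.202 for members and 0.076 for all genes. The closest was ADY3 for 3 against 2, at −0.41 ± 0.050 in culture 1 and −0.13 ± 0.050 in culture 2, a difference of 0.28 ± 0.070 (log2, SE, adjusted p = 0.0102).

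Genes repressed by glucose also moved with the aliquots. The summed level of 10 such markers, such as ICL1 and JEN1, was 153 to 243 TPM in technical replicate 1, 85.4 to 453 in replicate 2 and 195 to 408 in replicate 3. For replicate 3 against 1, 2 of 10 were called, both higher, over the 2 cultures together (26.2% of all genes higher). Within cultures 7 of 10 were higher in culture 1 (21.5% of all genes) and 4 of 10 in culture 2 (21.5% of all genes). For replicate 3 against 2, 10 of 10 were higher in culture 1 (19.2% of all genes) and 10 of 10 lower in culture 2 (12.1% of all genes). For replicate 2 against 1, 7 of 10 were lower in culture 1 (4.05% of all genes) and 10 of 10 higher in culture 2 (2.1% of all genes). Their part in the changes of the members was not tested.

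For replicate 3 against 1, 7 of 35 other genes induced in meiosis were called, 6 of them lower, and so were 8 of 23 repressors and input regulators, with 5 lower. These shares, like the 9 of 38 members, lie below the 49.3% of all genes called. The median standard error in this comparison was 0.0995 for members and 0.0418 for all genes. Members were thus measured less precisely, and the lower share of calls does not show that they changed less. The median log2 fold change was −0.15 for the 38 members, with 26 below 0, −0.07 for the other genes induced in meiosis and 0.01 for all genes. Above 0 lay 12 members and 52.7% of all genes.

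**Figure D4:**
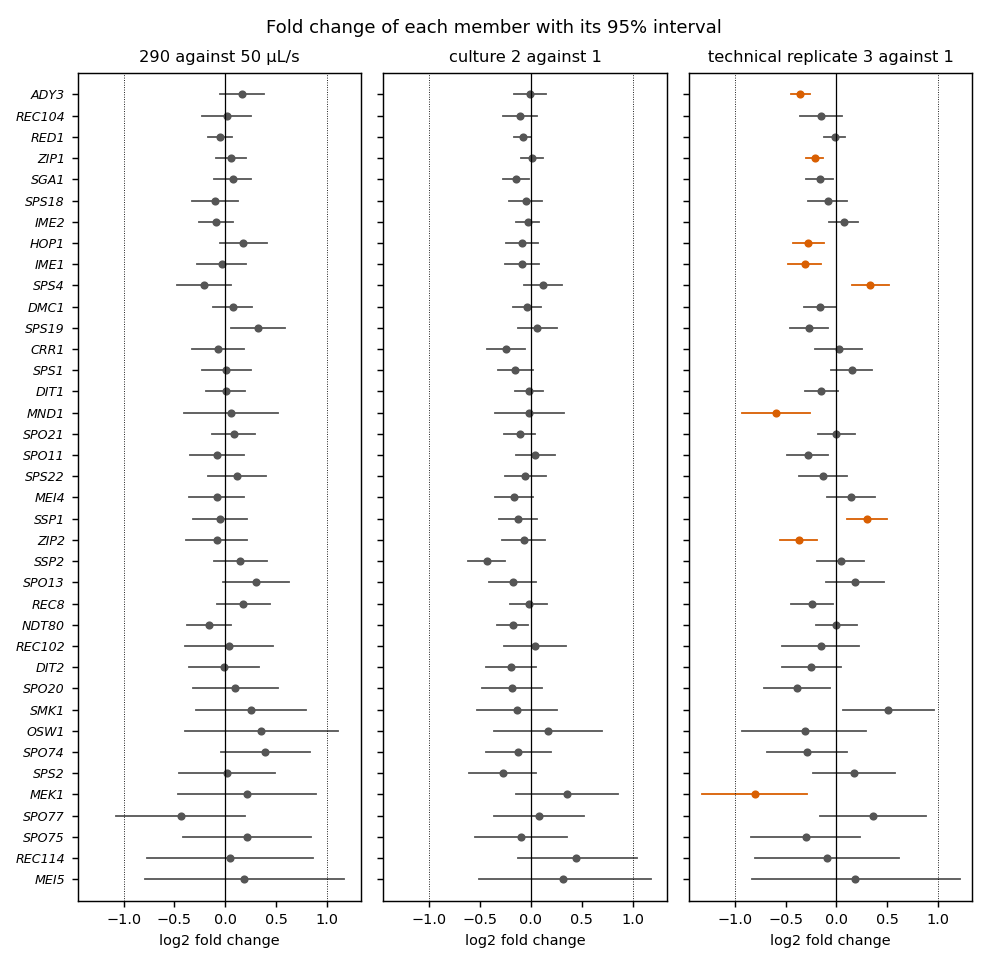
Log2 fold change of each of the 38 members tested (rows, by mean TPM) with its 95% interval for 290 against 50 µL/s, culture 2 against 1 and technical replicate 3 against 1; orange marks FDR below 0.01 and dotted lines mark a 2-fold change. Orange is seen only in the third panel, for 7 members below 0 and 2 above, and intervals widen towards the silent members at the bottom.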

How the data were processed

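RNA from 24 samples was sequenced as paired 36 nt reads from a strand-specific poly(A) library. The authors trimmed reads with fastp 0.23.2, aligned them with STAR 2.7.10a to the W303 assembly and estimated expression with RSEM, set to the reverse strand; the submitters' processing notes give these tools. The deposited gene tables held expected counts and TPM per gene, with gene models of coding length only. A deposited table of the whole series was not used here.

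The estimated counts were taken to the nearest whole number for edgeR 4.0.16 in R 4.3.3 (TMM scaling, average count above 1, quasi-likelihood F-test, Benjamini-Hochberg adjustment over 5142 genes). The model was count ~ speed + biological replicate, with technical replicate added for comparisons of technical replicates. Mean TPM set the classes, at 1 and 10 TPM. DESeq2 1.42.0 and limma 3.58.1 (voom) were alternatives. The fit was tested on simulated data. Libraries of 11555784 to 15464458 counts set the precision, and intervals cover the spread between these samples.

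The members and lists were chosen with earlier results of these data known. Named were IME1, IME2, NDT80, members of 10 TPM or more, called members, the 5 lowest, and member pairs transcribed apart; other members are described by role. Across speeds, deviations from the group means correlated above 0.1 in 36 of 36 pairs with the same biological and technical replicate number (0.151 to 0.782), so these numbers were taken as pairing the samples. Above 0.1 also lay 21 of 36 pairs sharing the technical replicate number only. So did 15 of 72 pairs sharing the culture only and 17 of 72 sharing neither number. Gene names and neighbours came from the S288C RefSeq annotation, whose build differs from that of the files, so no coordinate or sequence is given.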

Additional observations from a re-analysis of the deposited data

Results flagged for a closer look

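Of 96 groups of 6 libraries examined (23 named members and the summed level, at 4 speeds), 3 held a library far from the other 5, and chance alone marks about 1 group in 20. HOP1 at 290 µL/s had 7.38 TPM in B2T3, with the next library at 9.46 TPM. REC104 at 130 µL/s had 16.66 TPM in B1T1, with the next at 12.89 TPM. SPO75 at 130 µL/s had 0.21 TPM in B2T1, from 6 counts, with the next at 0.40 TPM.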

How the results depend on the processing

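Counts of called members are for FDR below 0.01 with edgeR unless stated. Called members at the speeds and cultures stayed at 0 under other scaling, filters, DESeq2 and limma voom, and in all 24 fits that left out 1 library; at FDR 0.05 the cultures gave 1, technical replicate 2 against 1 gave 1, 3 against 1 gave 15 and 3 against 2 gave 7. With the replicate block of biological and technical replicate, chosen after seeing the data, 290 against 50 µL/s gave 1 member; with technical replicate as the replicate block it gave 0, and neither block changed another call. Within culture 1 and culture 2 alone, with 4 libraries per technical replicate, 3 against 1 gave 4 and 3 members and 3 against 2 gave 2 and 1. Leaving out 1 library gave 7 to 10 members for 3 against 1, 3 to 5 for 3 against 2 and 4 to 7 for the 3 technical replicates together. No fold change of a called member changed sign. For 3 against 1, MEK1 lost its call with limma voom and in 10 of 24 such fits (log2 −0.90 to −0.68), those without 50 µL/s B1T1, B1T3, B2T1 or B2T3, 130 µL/s B1T1 or B1T3, 210 µL/s B2T3, or 290 µL/s B1T1, B2T1 or B2T3. SSP1 lost it with DESeq2 and in 11 (0.23 to 0.36), those without 50 µL/s B1T3, 130 µL/s B1T1, B1T3, B2T1 or B2T2, 210 µL/s B1T1 or B2T3, or 290 µL/s B1T1, B1T3, B2T1 or B2T3. For 3 against 2, IME1 lost it in 8 (−0.29 to −0.21), those without 50 µL/s B1T3, B2T2 or B2T3, 130 µL/s B1T2, B2T2 or B2T3, or 210 µL/s B1T2 or B2T3. Limits of 0.5 and 5 TPM gave 4 silent and 12 clearly expressed members, limits of 2 and 20 TPM gave 1 clearly expressed, and the highest TPM of 24 libraries in place of the mean gave 5 and 9. Leaving out 1 library kept 10, 24 and 5 members in the classes, and the summed level between 175 and 177 TPM. Without the 5 clearly expressed members the sum was 109 TPM, and as CPM from the counts it was 286. The cause of these changes was not tested. Depth limits the members of a few counts: for 290 against 50 µL/s the 95% intervals of 3 of 38 members, all of them silent, still held a 2-fold change.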
